A study of Mus musculus with 8 samples.

Results

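The matrix metalloproteinase (MMP), ADAM and ADAMTS proteases and the tissue inhibitors of metalloproteinases (TIMPs) were examined in the epididymal fat pad, a visceral white adipose depot, of male *Sucnr1-/-* and wild-type (WT) mice. A gene was a member when its symbol was Mmp, Adam, Adamts or Timp followed by a number, with or without 1 further letter. This gave 71 measured genes of 18820: 20 Mmp, 29 Adam, 18 Adamts and 4 Timp genes. There were 4 WT and 4 *Sucnr1-/-* mice on a C57BL/6 background, each measured on 1 Affymetrix whole-transcript array. All had eaten a semi-synthetic low-fat diet (LFD) for 16 weeks from 8 to 10 weeks of age and were killed at 24 to 26 weeks. Both genotypes came from intercrosses of heterozygous mice. In *Sucnr1-/-* mice, which lack the receptor for extracellular succinate in every cell, a lacZ and neomycin cassette took the place of most of the receptor's coding sequence.

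MMPs are zinc-dependent proteases, most of them secreted as inactive zymogens, which together can cleave the components of the extracellular matrix. ADAMs are membrane-anchored relatives. Some shed cytokines, growth factors and receptors from the cell surface, while many others are made in the male reproductive tract and serve in fertilisation. ADAMTS proteases are secreted, bind matrix, and process procollagen or cleave large proteoglycans. TIMPs block the catalytic site of MMPs and of several ADAM and ADAMTS proteases. In adipose tissue these proteins take part in the matrix remodelling that accompanies fat cell growth and vessel formation, and macrophages and stromal cells are among their sources.

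Of the RefSeq symbols that meet the rule, 80 in all, 9 were not analysed here. Probe sets shared with another gene were the reason for *Adam20*, *Adam25*, *Adam34*, *Adam6a*, *Adam6b* and *Mmp28*, and no probe set was assigned here to *Adamts2*, *Mmp15* or *Mmp27*. Several members are neighbours on the RefSeq assembly GRCm38.p6. It served for names, order and sequences alone, as the arrays come with no stated build. The longest such run, on chromosome 9, holds 10 Mmp genes in the order *Mmp13*, *Mmp12*, *Mmp1b*, *Mmp3*, *Mmp1a*, *Mmp10*, *Mmp8*, *Mmp27*, *Mmp20* and *Mmp7*, of which 9 were measured. *Adam3* and *Adam5* are neighbours, as are *Adamts1* and *Adamts5*. The arrays give no signal by which a gene could be called absent. Of the members, 34 lay below the median of the array on all 8 arrays and 30 above it on all 8. Among those always below were 15 of the 17 ADAM genes listed here as reproductive. The 4 Timp genes lay above it on every array.

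Upstream sequence is shown for the chromosome 9 run because 7 of its 9 measured genes hold the letters of an AP-1 site, the motif bound by *Fos* and *Jun* dimers for which Mmp promoters are known. The letters searched were TGACTCA or, read from the other strand, TGAGTCA, within the 250 bases before each RefSeq start. Promoter windows were found for 41 of the 71 members, of which 9 (22%) held the motif: these 7 Mmp genes, *Adam19* and *Adam29*. It was present upstream of 5.16% of all 27025 genes with a window. Of the other motifs searched, the CRE letters TGACGTCA were found upstream of 0 of the 41 members and 1.77% of all genes. A form of the NF-kB motif was found upstream of 0 members and 0.414% of all genes. A PU.1 form, GAGGAAGT or ACTTCCTC, was found upstream of 4 members (*Adam29*, *Mmp12*, *Mmp7* and *Mmp8*) and 2.79% of all genes. The 60 bases around each AP-1 motif follow, from RefSeq, build GRCm38.p6, 5′ to 3′ on the gene's own strand, with the motif in capitals. For *Mmp12* the downstream of its listed starts was used, since the other window held no match.
Mmp13 (chr9:7272452-7272511, + strand): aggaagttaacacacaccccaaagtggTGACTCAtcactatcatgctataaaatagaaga
Mmp12 (chr9:7347303-7347362, + strand): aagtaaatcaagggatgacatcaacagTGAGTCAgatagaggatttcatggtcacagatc
Mmp1b (chr9:7388087-7388146, - strand): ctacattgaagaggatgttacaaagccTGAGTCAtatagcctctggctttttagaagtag
Mmp3 (chr9:7445749-7445808, + strand): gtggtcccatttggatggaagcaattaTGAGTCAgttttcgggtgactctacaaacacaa
Mmp1a (chr9:7464041-7464100, + strand): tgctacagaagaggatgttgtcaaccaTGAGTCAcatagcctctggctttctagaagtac
Mmp10 (chr9:7502252-7502311, + strand): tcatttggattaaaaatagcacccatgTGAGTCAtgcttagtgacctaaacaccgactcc
Mmp7 (chr9:7692000-7692059, + strand): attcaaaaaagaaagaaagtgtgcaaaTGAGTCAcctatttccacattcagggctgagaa
The motif began 35 bases before the start in *Mmp13*, 44 in *Mmp12*, 46 in *Mmp3* and 93 in *Mmp1b*, with the other 3 genes between. *Mmp8* and *Mmp20*, the other measured genes of the run, held no match in their windows.

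As a check of the labels, *Sucnr1* lay between 5.41 and 7.11 in the *Sucnr1-/-* mice and between 8.68 and 9.78 in the WT mice, in log2 expression units (difference −3.05, SE 0.36; limma, adjusted p = 0.321). Adipocyte markers lay between 9.14 and 13.7 on all arrays. Array medians were 6.28 to 6.36, and any 2 arrays correlated at 0.978 to 0.996 over genes. In the limma fit over all 18820 genes 0 had an adjusted p under 0.05 (0%), while 632 genes were lower and 652 higher in *Sucnr1-/-* mice at an unadjusted p under 0.05. With each array centred on its median that split was 330 lower and 1352 higher, so that shares of higher genes depend on the scaling. WT mouse 1 and *Sucnr1-/-* mouse 1 held the highest values of most immediate early genes and of some neutrophil markers, and both are followed below.

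None of the 71 protease and inhibitor genes differed between genotypes at the adjusted threshold (limma, adjusted p from 0.712 to 0.996), where the background was likewise 0%. Without adjustment 4 members (5.63%) were lower in *Sucnr1-/-* mice, against 3.36% of all genes, and 4 (5.63%) were higher, against 3.46%. The lower ones were *Mmp12*, *Mmp19*, *Adam8* and *Adam17*, and the higher ones *Adam1a*, *Adam11*, *Adamts12* and *Adamts18*. Every *Sucnr1-/-* mouse lay above every WT mouse for 4 members, the same higher ones, against 2.37% of all genes. The reverse held for 0 members, against 1.87% of all genes. The median log2 difference of the members, *Sucnr1-/-* minus WT, was 0.0095 beside 0.0092 for all genes. Means were lower in *Sucnr1-/-* mice for 35 members and higher for 36. By family, 13 of 20 Mmp genes had the lower mean (median −0.06), as had 12 of 29 Adam genes (0.04), 8 of 18 Adamts genes (0.02) and 2 of 4 Timp genes (0.04). Centred on array medians, 12 Mmp, 8 Adam, 6 Adamts and 2 Timp genes had the lower mean, which made 28 lower and 43 higher in all. WT mouse 1 had the highest value of the 8 mice for 21 members (29.6%), against 18.2% of all genes. Without it the members split into 34 lower and 37 higher. Without WT mouse 2, the count of members higher at an unadjusted p under 0.05 went from 4 to 8, while the share of all genes was 3.52%. The count of lower ones went from 4 to 2 without *Sucnr1-/-* mouse 2, 3 or 4, with shares of all genes of 1.96%, 2.52% and 2.35%.

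**Figure D1:**
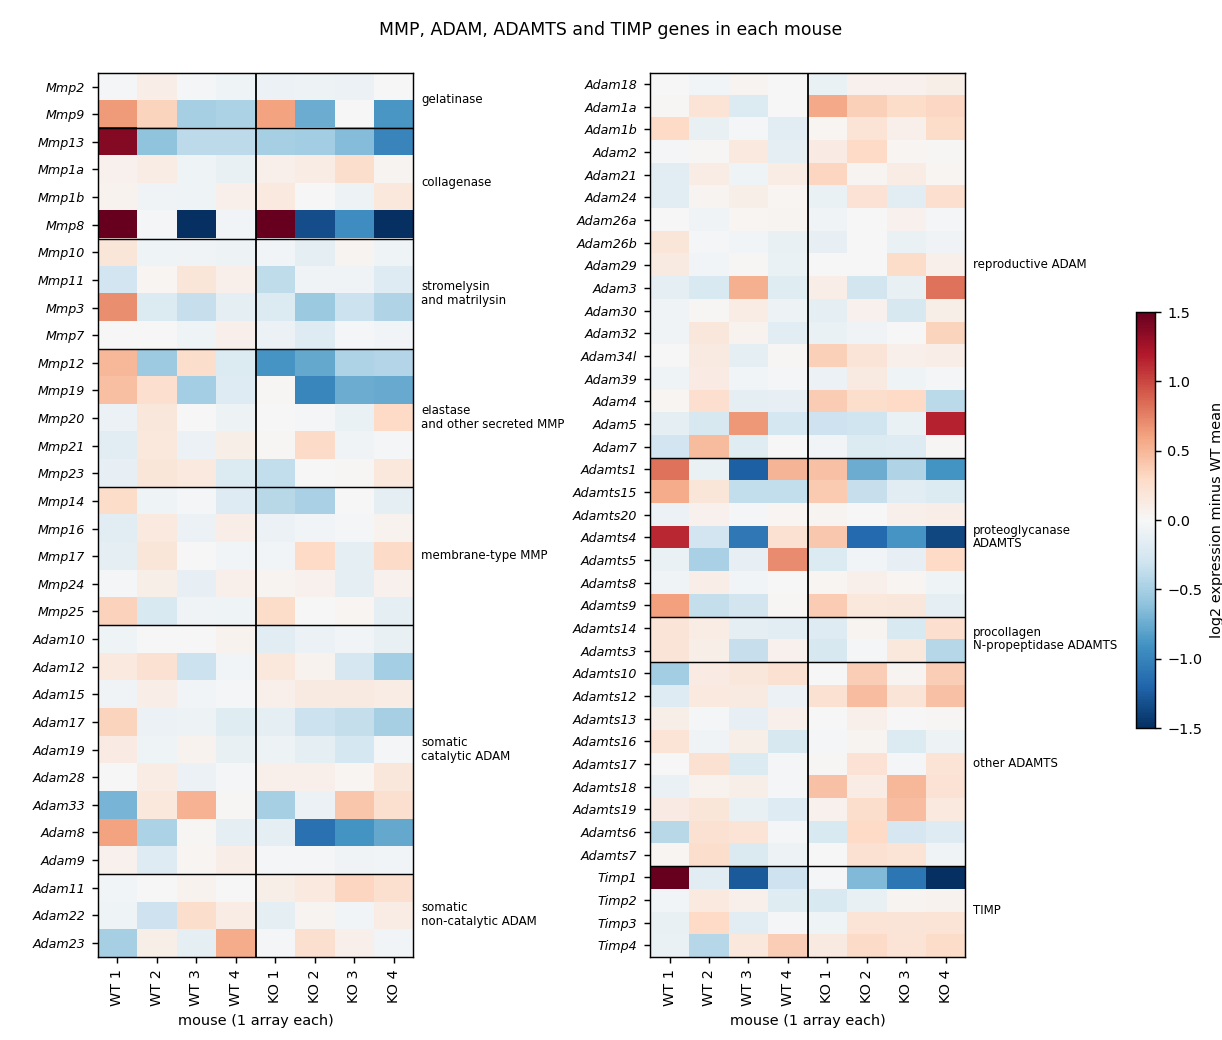
Log2 expression minus the WT mean (colour, saturating at 1.5) for the 71 genes (rows, by role) in 4 WT and 4 *Sucnr1-/-* (KO) mice (columns, 1 array each). Most rows are pale, and the deep colours sit in a few rows, such as *Mmp8*, *Mmp13*, *Adamts1*, *Adamts4* and *Timp1*, where they follow single mice.

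Among secreted MMPs, *Mmp12* and *Mmp19* had lower values in *Sucnr1-/-* mice. *Mmp12* encodes macrophage metalloelastase, which cleaves elastin and is made mainly by macrophages. Its log2 expression was 11.64, 10.60, 11.41 and 10.94 in WT mice 1 to 4 and 10.26, 10.38, 10.68 and 10.71 in *Sucnr1-/-* mice 1 to 4. WT mouse 2 lay among the *Sucnr1-/-* mice and the other WT mice lay above all of them. The means were 11.15 ± 0.47 (SD, n = 4) and 10.51 ± 0.22 (SD, n = 4), a log2 difference of −0.64 (SE 0.22; limma, unadjusted p = 0.0186, adjusted p = 0.712). WT was 1.56 times the *Sucnr1-/-* level on the linear scale. The difference was −0.47 without WT mouse 1, and leaving out WT mouse 3 took the unadjusted p to 0.0511. With WT mouse 1 and *Sucnr1-/-* mouse 1 both left out, the difference was −0.39 and the unadjusted p exceeded 0.05.

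*Mmp19* encodes a secreted protease of basement membrane proteins. WT mice 1 to 4 were at 11.02, 10.83, 10.06 and 10.37, and *Sucnr1-/-* mice 1 to 4 at 10.58, 9.60, 9.83 and 9.82. Only *Sucnr1-/-* mouse 1 reached into the WT range. The difference was −0.62 (SE 0.26; limma, unadjusted p = 0.0427, adjusted p = 0.719). It ranged from −0.82 to −0.47 with 1 mouse left out. The unadjusted p exceeded 0.05 under 8 of 17 alternatives. These included leaving out WT mouse 1 or 2 or *Sucnr1-/-* mouse 2, 3 or 4, and the methods' two-group test.

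The other secreted MMPs did not differ beyond their spread. *Mmp2*, gelatinase A, which cleaves denatured collagen and type IV collagen, lay at 10.65 to 10.80 in WT and 10.62 to 10.70 in *Sucnr1-/-* mice, a difference of −0.06 (SE 0.06). *Mmp9*, gelatinase B, spanned 7.28 to 8.41 in WT and 6.90 to 8.38 in *Sucnr1-/-* mice (difference −0.25, SE 0.38). In both groups the highest *Mmp9* value was that of mouse 1. The difference was −0.04 without WT mouse 1, −0.54 without *Sucnr1-/-* mouse 1, −0.09 without *Sucnr1-/-* mouse 2 and −0.05 without *Sucnr1-/-* mouse 4. It was −0.14 without WT mouse 2 and −0.42 and −0.41 without WT mice 3 and 4. The collagenase *Mmp13* was at 7.68 in WT mouse 1 and 5.69 to 5.91 in the other WT mice, against 5.30 to 5.79 in *Sucnr1-/-* mice. Its difference was −0.66 (SE 0.40) with all mice and −0.20 without WT mouse 1. *Mmp3*, stromelysin 1, was likewise highest in WT mouse 1, at 6.40 against 5.35 to 5.55 in the other WT mice and 5.14 to 5.49 in *Sucnr1-/-* mice. Its difference went from −0.39 (SE 0.21) to −0.15 without that mouse. The unadjusted p of *Mmp3* was under 0.05 under 1 of the 16 alternatives that kept it. *Mmp11*, stromelysin 3, differed by −0.17 (SE 0.12), by −0.26 without WT mouse 1 (unadjusted p under 0.05), by −0.11 without WT mouse 3 and by −0.10 without *Sucnr1-/-* mouse 1. Of the 7 genes printed above, 5 had lower and 2 higher means. *Mmp10*, *Mmp7*, *Mmp1a* and *Mmp1b*, like *Mmp20* and *Mmp21*, stayed below the array median in all mice and differed by −0.08 to 0.13.

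The membrane-type MMPs, which act at the cell surface, held no member past an unadjusted p of 0.05. *Mmp14*, which cleaves collagen and activates pro-*Mmp2*, was at 9.97, 9.64, 9.68 and 9.51 in WT mice and 9.29, 9.21, 9.71 and 9.56 in *Sucnr1-/-* mice. Its difference was −0.26 (SE 0.14; limma, adjusted p = 0.727). It was −0.17 without WT mouse 1, and the unadjusted p was under 0.05 without *Sucnr1-/-* mouse 3 alone (difference −0.35). *Mmp16*, *Mmp17*, *Mmp24* and *Mmp25* differed by −0.02 to 0.10.

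Among the ADAMs with an active protease domain that are expressed outside the reproductive tract, *Adam8* and *Adam17* had lower values in *Sucnr1-/-* mice. *Adam8* encodes a leucocyte sheddase. It was at 10.22, 9.14, 9.63 and 9.46 in WT mice 1 to 4 and at 9.47, 8.49, 8.72 and 8.85 in *Sucnr1-/-* mice 1 to 4. Only *Sucnr1-/-* mouse 1 lay above any WT mouse. The means of 9.61 ± 0.45 (SD, n = 4) and 8.88 ± 0.42 (SD, n = 4) differed by −0.73 (SE 0.26; limma, unadjusted p = 0.0216, adjusted p = 0.712). The WT level was 1.66 times the *Sucnr1-/-* level. Leaving out 1 mouse gave −0.93 to −0.53. The unadjusted p exceeded 0.05 without *Sucnr1-/-* mouse 2 or 3 and by the methods' two-group test.

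*Adam17* encodes the converting enzyme that releases tumour necrosis factor from the cell surface. WT mice were at 9.37, 8.95, 8.95 and 8.84, and *Sucnr1-/-* mice at 8.88, 8.71, 8.68 and 8.53. The groups overlapped through WT mouse 4 and *Sucnr1-/-* mouse 1 alone. The difference was −0.33 (SE 0.12; limma, unadjusted p = 0.0264, adjusted p = 0.712). It was −0.22 without WT mouse 1. The unadjusted p exceeded 0.05 without *Sucnr1-/-* mouse 3 or 4 and by the methods' two-group test. *Adam10*, the related sheddase of Notch receptors, differed less. It lay at 9.64 to 9.76 in WT and 9.54 to 9.67 in *Sucnr1-/-* mice, a difference of −0.10 (SE 0.06).

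As with *Mmp12*, *Mmp19*, *Adam8* and *Adam17*, most macrophage markers had lower means in *Sucnr1-/-* mice. Of 23 measured, 21 had the lower mean in *Sucnr1-/-* mice and 2 the higher, beside 8816 lower and 10004 higher of all 18820 genes. At an unadjusted p under 0.05, 7 were lower, against 3.36% of all genes, and 1 (*Mertk*) was higher, against 3.46%. The mean log2 level of these markers relative to the WT mean was −0.17 to 0.20 in WT mice and −0.41 to −0.13 in *Sucnr1-/-* mice. The difference of −0.29 in this mean was −0.22 without WT mouse 1. Among WT mice, mouse 1 was highest for this mean and for all 4 genes. Among *Sucnr1-/-* mice, mouse 1 was highest for this mean and for *Mmp19*, *Adam8* and *Adam17*, but lowest for *Mmp12*. B cell markers had lower means in 6 of 6 (mean difference −0.83, and −0.43 without WT mouse 1) and T cell markers in 7 of 7 (−0.33, and −0.20 without that mouse). Their levels ranged widely, from −0.85 to 1.20 in WT and −1.46 to −0.17 in *Sucnr1-/-* mice for B cells and from −0.51 to 0.48 and −0.67 to 0.40 for T cells. Adipocyte markers had higher means in 11 of 13 (mean difference 0.10, and 0.03 without WT mouse 1). The part of any of these markers in the differences of the 4 genes was not tested. In RNA of whole tissue, fewer cells of a type cannot be told apart from less RNA per cell.

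Of the other somatic ADAMs, *Adam15* lay at 10.85 to 11.00 in WT and 10.97 to 11.04 in *Sucnr1-/-* mice (difference 0.11, SE 0.06). Its unadjusted p was under 0.05 without WT mouse 2, with median centring and by the methods' two-group test, the last of which also held for *Adam10*. *Adam12*, also called meltrin alpha, differed by −0.14 (SE 0.17). The *Adam12* difference changed with single mice, to −0.25 without WT mouse 3, −0.24 without *Sucnr1-/-* mouse 1, −0.06 without WT mouse 2, −0.09 without WT mouse 1 and −0.01 without *Sucnr1-/-* mouse 4. *Adam28* stayed below the array median in all mice and differed by 0.09 (SE 0.07). *Adam9*, *Adam19* and *Adam33* differed by −0.04, −0.12 and 0.02. *Adam11*, *Adam22* and *Adam23* encode ADAMs without protease activity that are known from the nervous system. *Adam11* was at 5.74, 5.77, 5.83 and 5.79 in WT mice and 5.86, 5.92, 6.11 and 6.02 in *Sucnr1-/-* mice. The groups did not overlap, with a difference of 0.20 (SE 0.07; limma, adjusted p = 0.712) and an exact two-sided permutation p of 0.0286, the smallest that 4 mice against 4 allow. Without *Sucnr1-/-* mouse 3 the difference was 0.15 and the unadjusted p exceeded 0.05. All 8 values lay below the array medians.

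**Figure D2:**
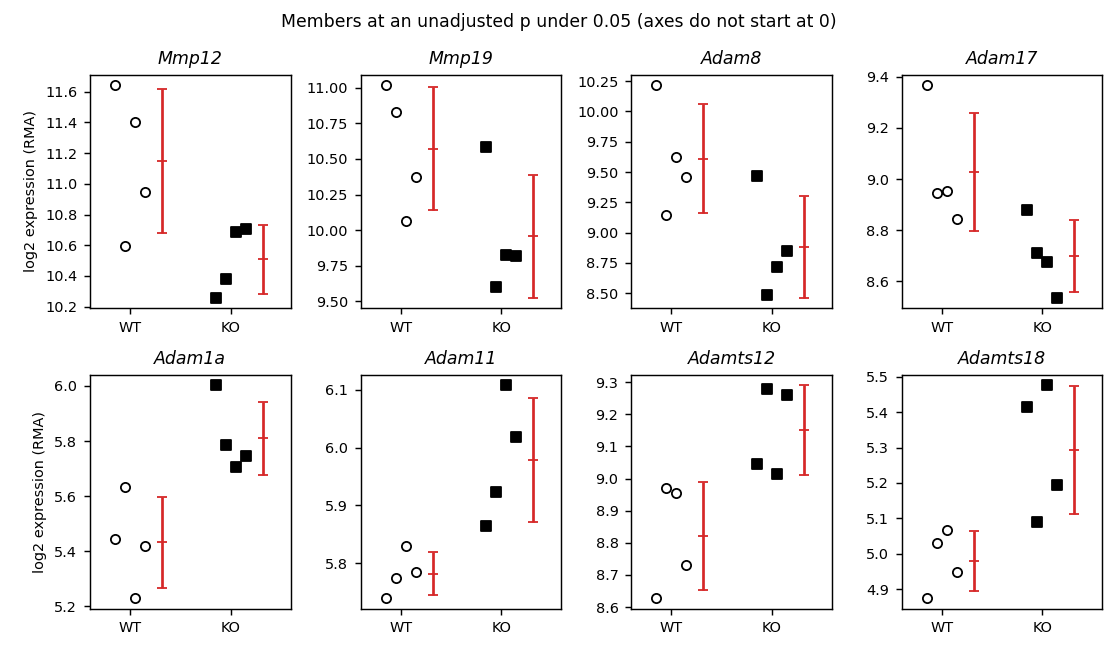
Log2 expression (RMA, vertical axis, not starting at 0) of the 8 members at an unadjusted p under 0.05, for each WT (circles) and *Sucnr1-/-* (KO, squares) mouse; red marks give means and SDs. The 4 genes of the upper row overlap between genotypes and the 4 of the lower row do not.

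*Adamts12* and *Adamts18* had higher values in *Sucnr1-/-* mice. *Adamts12* encodes a protease of cartilage oligomeric matrix protein. It was at 8.63, 8.97, 8.95 and 8.73 in WT mice and at 9.05, 9.28, 9.01 and 9.26 in *Sucnr1-/-* mice. All *Sucnr1-/-* mice lay above all WT mice. The means of 8.82 ± 0.17 (SD, n = 4) and 9.15 ± 0.14 (SD, n = 4) differed by 0.33 (SE 0.10; limma, unadjusted p = 0.0118, adjusted p = 0.712), a level 1.26 times that of WT. The difference was 0.26 to 0.38 with 1 mouse left out, and among the higher members *Adamts12* alone lay above the array median. *Adamts18* was at 4.87, 5.03, 5.07 and 4.95 in WT and 5.41, 5.09, 5.48 and 5.19 in *Sucnr1-/-* mice, without overlap. It differed by 0.31 (SE 0.10; limma, adjusted p = 0.712), with all values below the array medians. With mouse 1 of both groups left out the *Adamts18* difference was 0.24 and the unadjusted p exceeded 0.05. The exact permutation p (two-sided) was 0.0286 for both genes, the value that 4 mice against 4 always give without overlap. For the lower members the exact permutation p was 0.0857 (*Mmp12*, *Mmp19* and *Adam8*) and 0.0571 (*Adam17*).

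Among the ADAMTS proteases that cleave versican and aggrecan, *Adamts1*, *Adamts4*, *Adamts5* and *Adamts9* differed mainly between mice of 1 genotype. The pooled SD within groups was 0.39 for *Adamts15*, and only 0.064 for *Adamts8* and 0.054 for *Adamts20*. *Adamts4* was at 9.02, 7.60, 6.81 and 8.11 in WT mice and 8.29, 6.73, 7.003 and 6.52 in *Sucnr1-/-* mice. The difference of −0.75 had a standard error of 0.51, and became −0.38 without WT mouse 1. It was −1.14 without *Sucnr1-/-* mouse 1, where the unadjusted p was under 0.05, as it was without WT mouse 3 (−1.11). *Adamts1*, at 11.08, 10.16, 9.04 and 10.77 in WT and 10.70, 9.51, 9.81 and 9.37 in *Sucnr1-/-* mice, put the mice of each genotype in the same order as *Adamts4*. Its difference was −0.41 (SE 0.45). It was −0.14 without WT mouse 1, −0.24 without WT mouse 4, −0.25 without *Sucnr1-/-* mouse 4, −0.70 without *Sucnr1-/-* mouse 1 and −0.82 without WT mouse 3, the last with an unadjusted p under 0.05. *Adamts9* was highest in mouse 1 of both groups (10.08 in WT and 9.84 in *Sucnr1-/-* mice) and differed by 0.14 (SE 0.21). That difference was 0.35, with an unadjusted p under 0.05, without WT mouse 1. It was 0.02 without WT mouse 2, 0.05 without WT mouse 3, 0.07 without *Sucnr1-/-* mouse 1 and 0.23 without *Sucnr1-/-* mouse 4. For *Adamts5*, the neighbour of *Adamts1*, the order was another. WT mouse 4 was highest at 12.07 against 10.87 to 11.27 in the other WT mice, and the difference of −0.02 (SE 0.23) turned to 0.22 without that mouse. It also turned to 0.05 without *Sucnr1-/-* mouse 1 and 0.02 without *Sucnr1-/-* mouse 3, with array medians as centre, and with mouse 1 of both groups left out. *Adamts3* and *Adamts14*, which trim procollagen, differed by −0.13 and −0.03. *Adamts19* was higher by 0.23 (SE 0.11), with an unadjusted p under 0.05 without WT mouse 2, without *Sucnr1-/-* mouse 1, without mouse 1 of both groups or with array weights. *Adamts3* was measured by 16 probe sets, of which 7 had a lower and 9 a higher mean, between −0.16 and 0.13. The 6 probe sets of *Adamts9* and the 5 of *Adamts17* all had higher means.

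The TIMPs split evenly. *Timp1*, an inducible inhibitor, was at 10.66, 8.74, 7.66 and 8.61 in WT mice 1 to 4 and at 8.90, 8.26, 7.83 and 6.61 in *Sucnr1-/-* mice 1 to 4. In each group mouse 1 was highest, and WT mouse 3 lay below 3 of the *Sucnr1-/-* mice. The mean difference, −1.02 (SE 0.66; limma, adjusted p = 0.746), was the largest in size among the 71 members. It was −0.44 without WT mouse 1, −0.59 without *Sucnr1-/-* mouse 4, −1.35 without *Sucnr1-/-* mouse 1 and −1.44 without WT mouse 3. The 95% interval over all mice ran from −2.52 to 0.49. Its unadjusted p was under 0.05 under 1 of 17 alternatives. *Timp2*, which also takes part in the activation of *Mmp2*, lay at 11.89 to 12.22 in WT and 11.84 to 12.12 in *Sucnr1-/-* mice. Its difference was −0.06 (SE 0.10; 95% interval −0.28 to 0.16). *Timp3*, which binds to matrix and inhibits *Adam17*, differed by 0.14 (SE 0.11). It was at 11.64, 12.05, 11.59 and 11.73 in WT mice and 11.69, 11.96, 11.95 and 11.97 in *Sucnr1-/-* mice. The *Timp3* difference was 0.24, with an unadjusted p under 0.05, without WT mouse 2, and 0.09 without WT mouse 3. *Timp4*, which adipocytes make, was at 12.16, 11.83, 12.41 and 12.62 in WT and 12.39, 12.54, 12.46 and 12.53 in *Sucnr1-/-* mice. The *Sucnr1-/-* mice thus lay within the WT range (difference 0.22, SE 0.15). Without WT mouse 2 the *Timp4* difference was 0.08, and without WT mouse 4 it was 0.35 with an unadjusted p under 0.05.

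**Figure D3:**
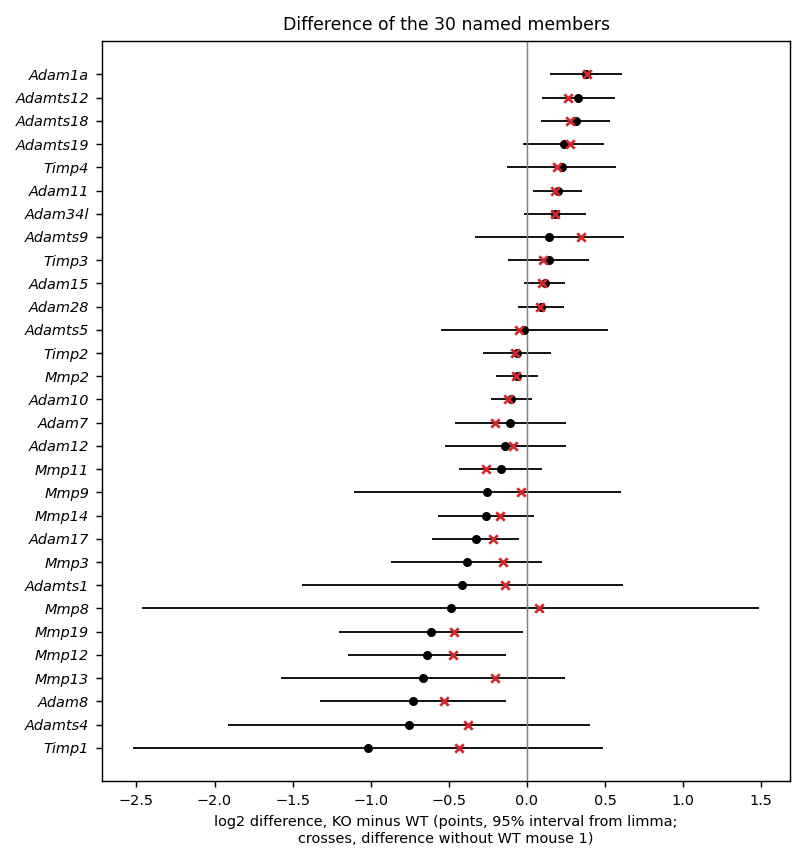
Log2 difference, *Sucnr1-/-* (KO) minus WT (horizontal axis), of the 30 members named by rule, with its 95% interval from limma (points and lines) and its value without WT mouse 1 (crosses). The crosses lie nearer to 0 than the points for *Timp1*, *Adamts4*, *Adam8*, *Mmp13*, *Mmp12* and *Mmp19*, and *Mmp8* crosses 0.

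Several members varied widely between mice of 1 genotype. The pooled SD within groups was at least 0.5 log2 units for 7 members (9.86%), against 3.33% of all genes. These were *Mmp8*, *Timp1*, *Adamts4*, *Adamts1*, *Mmp13*, *Mmp9* and *Adam5*. WT mouse 1 was the highest WT mouse for 6 of the 7, and *Sucnr1-/-* mouse 1 the highest *Sucnr1-/-* mouse for 6 of the 7. *Adam5* was the exception in both groups. *Mmp8*, neutrophil collagenase, is stored in neutrophil granules. It was at 7.55, 5.83, 4.23 and 5.82 in WT mice and at 7.71, 4.53, 4.93 and 4.31 in *Sucnr1-/-* mice, so that mouse 1 of each genotype stood far above the rest. The difference between genotypes was −0.49 (SE 0.87). It was 0.08 without WT mouse 1, −1.03 without WT mouse 3, −1.27 without *Sucnr1-/-* mouse 1, and −0.21 and −0.14 without *Sucnr1-/-* mice 2 and 4.

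The same 2 mice were highest for 4 of 9 measured neutrophil markers, namely S100a8, S100a9, *Retnlg* and *Cxcr2*. S100a8, a calcium-binding protein abundant in neutrophils, was at 8.17 and 9.67 in WT mouse 1 and *Sucnr1-/-* mouse 1, and at 5.69 to 6.84 in the other mice. The other 5 markers (*Ngp*, *Camp*, *Elane*, *Mpo* and *Ltf*) did not single out these mice, and *Elane* and *Ngp* were lowest in WT mouse 1. Over all 9 the mean level relative to the WT mean was 0.64 and 1.28 in these mice and −0.41 to 0.05 in the others. Between genotypes, 8 of the 9 markers had a higher mean in *Sucnr1-/-* mice, 0 of them at an unadjusted p under 0.05. The mean ranged from −0.41 to 0.64 in WT and from −0.33 to 1.28 in *Sucnr1-/-* mice. Immediate early genes respond within minutes to stimuli and handling. WT mouse 1 and *Sucnr1-/-* mouse 1 held the highest 2 values of 9 of these 13 genes. Their mean was 0.69 in WT mouse 1 and 0.40 in *Sucnr1-/-* mouse 1, against −0.41 to −0.11 in the other WT mice and −0.68 to −0.37 in the other *Sucnr1-/-* mice. Of the AP-1 subunits among them, *Fos* was at 8.20 in WT mouse 1 and 6.09 to 7.39 in the other mice. *Fosb* was at 8.77 in WT mouse 1, 8.64 in *Sucnr1-/-* mouse 1 and 6.34 to 6.95 in the others. *Junb* was at 9.09 and 8.995 in these mice and 7.36 to 8.17 in the others. *Jun* was at 9.93 to 10.23 in WT and 10.31 to 10.46 in *Sucnr1-/-* mice. Of the 13 genes 11 had a lower mean in *Sucnr1-/-* mice. The mean difference of the 13 was −0.30, and −0.07 without WT mouse 1. Whether these genes or cells had a part in the values of *Timp1*, *Adamts1*, *Adamts4*, *Mmp3*, *Mmp8*, *Mmp9* or *Mmp13* was not tested.

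**Figure D4:**
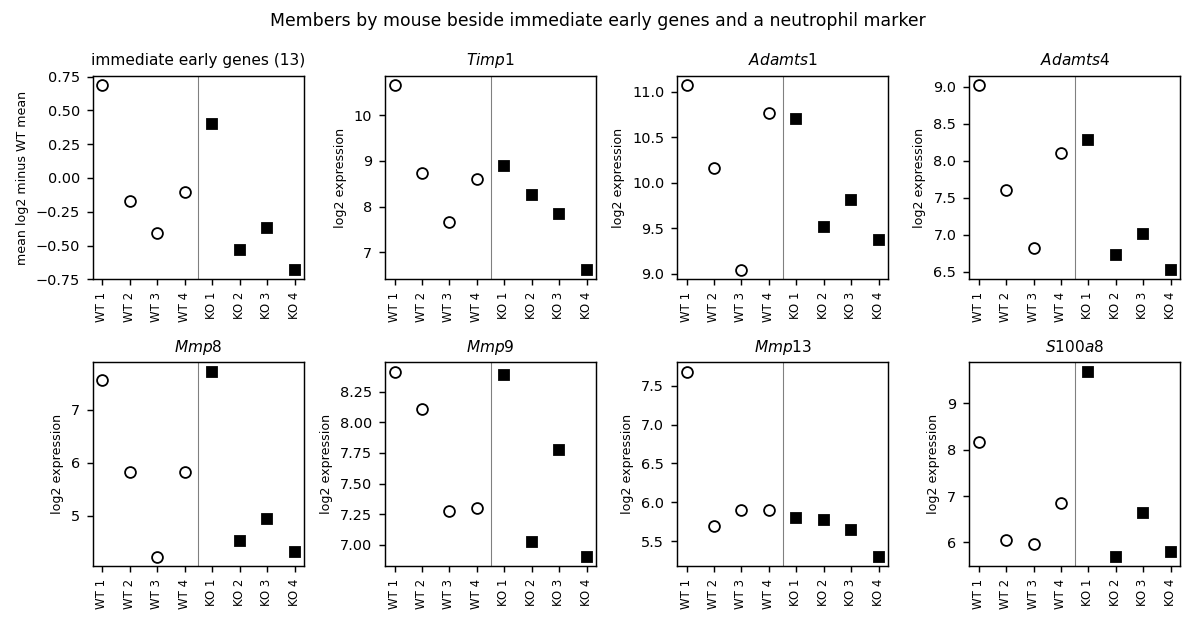
Mean log2 level of 13 immediate early genes relative to the WT mean, and log2 expression of 6 members and of the neutrophil marker S100a8 (vertical axes, not starting at 0), for each WT (open circles) and *Sucnr1-/-* (KO, squares) mouse. Mouse 1 of both genotypes is highest in its group in every panel.

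The ADAM genes of the reproductive tract had higher means in *Sucnr1-/-* mice for 12 of 17 and lower means for 5. Of all 18820 genes, 10004 had higher and 8816 lower means. At an unadjusted p under 0.05, 1 of the 17 was higher, against 3.46% of all genes (7.18% with median centring). This was *Adam1a*, which encodes a fertilin subunit. It was at 5.45, 5.63, 5.23 and 5.42 in WT and 6.00, 5.79, 5.71 and 5.75 in *Sucnr1-/-* mice, without overlap. The difference was 0.38 (SE 0.10; limma, unadjusted p = 0.00483, adjusted p = 0.712), the smallest p among the members, and was 0.31 to 0.44 with 1 mouse left out. Its neighbour *Adam1b* differed by 0.15 (SE 0.11). *Adam34l* was higher by 0.18 (SE 0.09), with an unadjusted p under 0.05 without WT mouse 2 or with arrays centred on their medians. Except for *Adam3* and *Adam4*, the 17 genes lay below the array median in all mice.

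*Adam3* and *Adam5*, neighbours that are expressed in sperm precursors, each stood out in 1 mouse of each genotype. *Adam3* was at 6.16 in WT mouse 3 and 6.44 in *Sucnr1-/-* mouse 4, against 5.35 to 5.72 in the other mice. *Adam5* was at 5.81 and 6.31 in these mice, against 4.85 to 5.06 in the others. *Prm1*, a protamine that packs sperm DNA, was at 10.23 and 11.03 in the same mice and at 6.09 to 7.53 elsewhere. The mean of 9 testis germ cell markers relative to the WT mean was 0.58 in WT mouse 3 and 0.95 in *Sucnr1-/-* mouse 4, against −0.37 to −0.07 in the other mice. These mice held the highest 2 values of 5 of the 9 markers. Of the 9, 8 had a higher mean in *Sucnr1-/-* mice, while *Sycp3*, of meiotic chromosomes, went the other way (−0.91, unadjusted p under 0.05) and was lowest of all in *Sucnr1-/-* mouse 4, at 6.30. The genotype differences were 0.13 (SE 0.25) for *Adam3* and 0.11 (SE 0.35) for *Adam5*. Without WT mouse 3 and *Sucnr1-/-* mouse 4 they were 0.08 and −0.02.

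*Adam7*, which is made in the epididymis, was at 4.56 in WT mouse 2 and 3.79 to 4.10 in the other mice. That mouse was also highest for 5 of 9 measured epididymis markers, among them *Lcn8* (5.96, against 4.39 to 4.65) and *Gpx5* (4.73, against 3.82 to 4.19). *Sucnr1-/-* mouse 4 was highest for 3 of the 9 (*Lcn5*, *Rnase9* and *Rnase10*) and *Sucnr1-/-* mouse 3 for 1 (*Defb15*). Over the 9 markers the mean of WT mouse 2 was 0.28, against −0.12 to 0.01 in the other mice. Of the 9, 5 had a lower mean in *Sucnr1-/-* mice. The *Adam7* difference of −0.11 (SE 0.16) was 0.05 without WT mouse 2 and −0.20 and −0.17 without WT mice 1 and 3. The part of testis or epididymis tissue in these values was not tested.

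**Figure D5:**
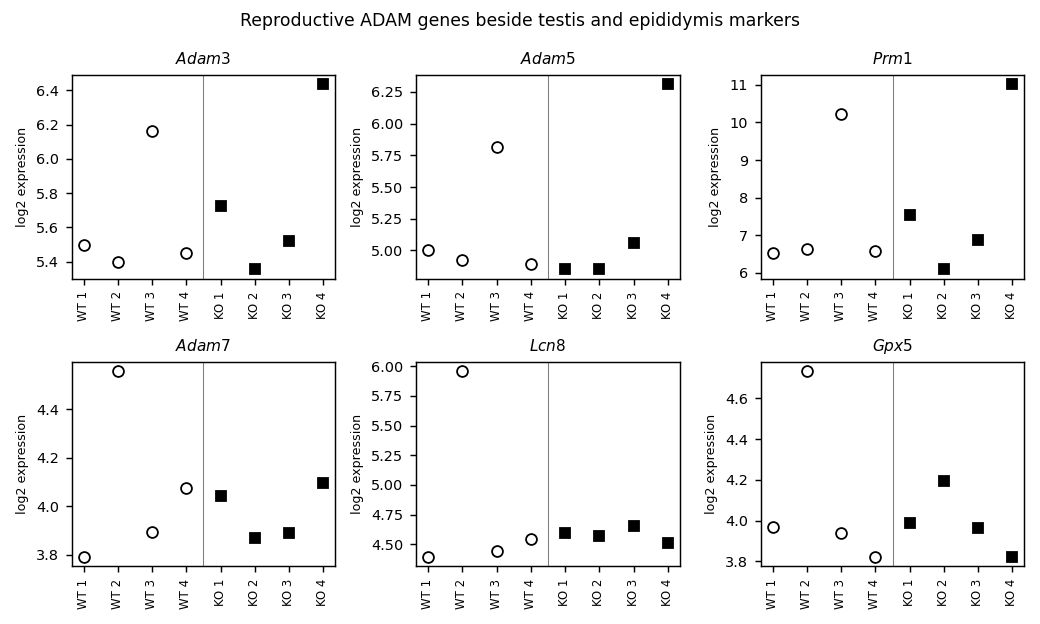
Log2 expression (vertical axes, not starting at 0) of *Adam3*, *Adam5* and the testis gene *Prm1* and of *Adam7* and the epididymis genes *Lcn8* and *Gpx5*, for each WT (open circles) and *Sucnr1-/-* (KO, squares) mouse. WT mouse 3 and *Sucnr1-/-* mouse 4 are highest in the upper row, and WT mouse 2 in the lower row.

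Genes that activate, restrain or serve as targets of these proteases were listed as background. Of 104 listed genes 95 were measured, 53 with lower and 42 with higher means in *Sucnr1-/-* mice (median −0.03), and 0 passed the adjusted threshold. At an unadjusted p under 0.05, 8 (8.42%) were lower, against 3.36% of all genes, and 6 (6.32%) higher, against 3.46%. Of 9 genes of zymogen activation 6 had lower means, among them *Plau*, the urokinase that generates plasmin. *Plau* was at 10.02 to 10.27 in WT and 9.68 to 10.00 in *Sucnr1-/-* mice, without overlap (difference −0.32, SE 0.09). *Pcsk6*, a proprotein convertase, ran the other way at 0.31 (SE 0.13). Of 10 further inhibitors and surface regulators 9 had lower means. *Cd63*, a tetraspanin that binds *Timp1*, was at 10.91 to 11.07 in WT and 10.51 to 10.87 in *Sucnr1-/-* mice (difference −0.37, SE 0.09), and the proteoglycan *Sdc1* differed by −0.47 (SE 0.18). Both were lower in every *Sucnr1-/-* mouse than in any WT mouse.

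Among 14 other matrix-degrading proteases 9 had lower means. The mast cell chymases *Mcpt4* and *Cma1* differed by −0.64 (SE 0.13) and −0.36 (SE 0.09), and the cysteine cathepsins Ctsk, Ctss and Ctsl by −0.47 (SE 0.14), −0.58 (SE 0.21) and −0.20 (SE 0.08). *Mcpt4*, *Cma1* and Ctsk did not overlap between the groups. *Prtn3*, a neutrophil protease, was higher by 0.35 (SE 0.15). Mast cell markers, a list that includes *Mcpt4* and *Cma1*, had lower means in 8 of 8. Their mean level was −0.10 to 0.18 in WT and −0.47 to −0.31 in *Sucnr1-/-* mice. *Kit*, *Tpsab1* and *Ms4a2* of that list differed by only −0.08 to −0.02. The macrophage markers given above, mostly lower too, include Ctss. The part of either list was not tested. Of 18 measured sheddase substrates 10 had lower and 8 higher means. The Notch ligand *Dll1*, at 6.33 to 6.51 in WT and 6.54 to 6.80 in *Sucnr1-/-* mice, was the only one at an unadjusted p under 0.05 (difference 0.29, SE 0.08). Among 10 measured regulators of the sheddases 6 had lower and 4 higher means, and none of them reached that p. Of 25 matrix substrates 16 had higher means, with *Col15a1*, a basement membrane collagen, at 0.38 (SE 0.13). Of 9 ADAMTS-like and related genes 5 had higher means, including *Adamtsl4* at 0.37 (SE 0.13) and *Adamtsl5* at 0.26 (SE 0.11). All 14 of these genes had a limma adjusted p of 0.712 or 0.719.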

How the data were processed

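RNA of epididymal fat was hybridised to Affymetrix Mouse Gene ST arrays, 1 per mouse. The authors deposited log2 values from RMA, per the processing notes. RMA subtracts background, brings the arrays to 1 distribution and merges probes, which compresses differences of dim genes. Its version, a genome build and scan dates are not given in the sources used here. Of 35556 probe sets, the 21218 assigned to a single symbol entered, with the one of highest mean standing for its gene, and dim genes stayed in. All 71 members matched RefSeq by Entrez ID.

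*Sucnr1-/-* and WT mice were compared with limma 3.58.1 in R 4.3.3 (lmFit, eBayes, 2.66 prior degrees of freedom), with Benjamini-Hochberg adjustment over 18820 genes at 0.05. The fit was checked on simulated data. The 4 arrays per group limit precision. The labels give replicate numbers, and the authors give n = 4 per genotype, so each array was taken as 1 mouse. Members and lists were chosen with earlier results of these data known. The genes named are those listed for their role, as far as measured, the 15 members of smallest p, and pathway genes at an unadjusted p under 0.05, while others named were chosen after their values were seen. The fit was repeated with median-centred or quantile-normalized arrays, with array weights, with a prior that follows intensity, with probe sets averaged per gene, with the replicate number as a block, without the dimmest 40% of genes, without each array, and as the methods' two-group test. Leaving out mouse 1 of both groups was added after seeing the data. Figures were drawn with matplotlib 3.10.9.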

Additional observations from a re-analysis of the deposited data

Results flagged for a closer look

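In 3 of 60 groups of 4 mice examined for the named members, 1 mouse was separated from the other 3 by more than Dixon's 95% limit, and chance alone gives about 1 in 20. *Mmp13* was at 7.678 in WT mouse 1, with 0.892 of the WT range between it and the next mouse. *Timp3* was at 11.694 in *Sucnr1-/-* mouse 1, below the others by 0.953 of the range. *Mmp2* was at 10.703 in *Sucnr1-/-* mouse 4, above the others by 0.866 of the range.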

How the results depend on the processing

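No alternative brought a member past the adjusted threshold (0 members in each of the 17). The median member difference ran from −0.06 with the dim genes left out, which keeps 33 members, to 0.05 with median centring, and from −0.04 to 0.03 with 1 array left out. The count of members lower at an unadjusted p under 0.05, 4 in the report, was 2 by the methods' two-group test (2.98% of all genes). Those 2 were *Mmp12* and *Adam10*. The count was 8 with the replicate number as a block (5.82% of all genes, against 3.36%). With 1 array left out it was 2 to 5, where shares of all genes were 1.96% to 4.7%. The count of higher ones, also 4, was 1 with the dim genes left out, where fewer members are tested (3.27% of all genes). That count was 3 to 8 with 1 array left out, where shares of all genes were 2.34% to 4.62%. Of the 30 named members 27 kept their sign under every alternative. *Adamts5* turned to 0.0248 with median centring and to 0.0136 without mouse 1 of both groups, and ranged from −0.18 to 0.22 with 1 array left out. *Adam7* ranged from −0.20 to 0.0542 (without WT mouse 2) and *Mmp8* from −1.27 to 0.0752 (without WT mouse 1) with 1 array left out. The cause was not tested. Same-numbered mice deviated together at r = 0.454, 0.141, 0.106 and 0.0148, and the labels name no shared litter or day. As 1 pair lay under 0.1, the numbers were not taken as pairs.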
